A study of Arabidopsis thaliana with 12 samples.

Results

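The non-polysomal mRNA (NP) of *eif3k* mutant seedlings was compared with that of the wild type (WT) on 6 arrays, 3 replicates of each genotype, out of the 12 arrays in the series. The members were chosen by their labels alone: every array hybridized with NP mRNA, and none with polysomal mRNA (PL). Both genotypes were *Arabidopsis thaliana* of ecotype Columbia, and the aerial part was taken at 11 days from plants on medium with 1% sucrose at 22 °C. The *eif3k* line carries a T-DNA in the sixth intron of At4g33250 and represents a single insertion allele. According to the study it makes an mRNA shortened at the 3′ end, and a full-length transcript was not detected (data not shown there). The WT carries no transgene. The labels give a day of 16 h light with harvest 4 h after light on, whereas the methods of the study name continuous light for this mutant, and the light regime is left as unknown. The 6 upper fractions of each sucrose gradient were pooled as NP. The values are log2 signals of Affymetrix ATH1 arrays, so a difference of 1 is a factor of 2 in signal.

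The initiation factor eIF3 is a complex of many subunits that binds the small ribosomal subunit and helps it to find an mRNA and its start codon. eIF3k is a peripheral subunit that is dispensable in several organisms. The upper fractions of a gradient hold mRNAs that are free, bound in small particles or loaded with a single ribosome. An mRNA can therefore be more abundant in NP because more of it is made or because less of it is loaded. These cannot be told apart from NP alone, and arrays scaled to one another do not show a shift of the whole mRNA pool.

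One mutant array stood apart before any gene was compared. Over the 7248 probe sets with a mean NP signal of at least 5, *eif3k* replicate 3 correlated with the other 5 arrays at 0.889 to 0.922 (Pearson's r). The WT array of replicate 3 reached 0.936 to 0.947 with the other 4, and those 4 reached 0.966 to 0.982 among themselves. According to the labels, the array data of replicates 1 and 2 were generated on one date (here array batch 1) and those of replicate 3 on another (array batch 2), and the submitters' labels also describe replicate 3 as the least alike. Median signals were 3.32 to 3.38 on the 6 arrays, the floor of the scale was 2.33, and on average 35.5% of the probe sets lay within 0.1 of that floor. For ubiquitin, the signal at the 3′ end was above that at the 5′ end by 2.92 in *eif3k* replicate 3 and 2.57 in WT replicate 3, against 1.92 to 2.24 on the other arrays. The GAPDH and actin controls did not share this order. There *eif3k* replicate 3 had the smallest excess, 6.65 against 6.86 to 7.97 for GAPDH and 6.34 against 6.40 to 6.58 for actin. The part of these array differences in the genotype comparison was not tested, and results are given below with and without replicate 3.

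The labelled tissue was checked with markers. The 4 measured of 5 leaf markers, which encode proteins of light harvesting and carbon fixation, had signals of 11.30 to 14.90. Of the 10 measured of 11 root markers, 8 lay within 0.1 of the floor on every NP array, among them *COBL9*, *EXPA7*, *IRT1* and *TIP2;3*.

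No mRNA passed the test in NP. Of 22746 probe sets, 0 (0.00%) had an adjusted p under 0.05 in limma together with a log2 difference of at least 1, and 721 (3.17%) had an unadjusted p under 0.05, 434 of them higher (1.91%) and 287 lower (1.26%) in *eif3k*. The smallest adjusted p, 0.0597, belonged to AT2G24390, a gene near the floor with a difference of 0.27, named here after its values were seen. A difference of at least 1 was found for 141 probe sets, 92 higher (0.404%) and 49 lower (0.215%). The 3 mutant signals lay above all 3 WT signals for 871 probe sets (3.83%) and below them for 561 (2.47%). Without *eif3k* replicate 3 only 45 probe sets differed by at least 1.

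The 3 pairs of same-numbered replicates differed widely in how far the genotypes lay apart. In pair 1, 67 probe sets were higher and 69 lower in the mutant by at least 1, and in pair 2, 132 were higher and 101 lower. In pair 3, 1529 were higher and 852 lower. Of the 141 probe sets with a mean difference of at least 1, 55 differed by less than 0.5 in array batch 1, and 21 differed by at least 1 there in the same direction. Only 4 probe sets differed by at least 1 in every pair, 3 higher and 1 lower. These were *QQS*, the defensin-like gene *PDF1.4* (AT1G19610) and the myrosinase-binding protein gene *MBP1* (AT1G52040) among the higher, and the MADS-box gene *AGL87* (AT1G22590) as the lower. *PDF1.4* was named after its values were seen. Its signals of 7.92, 6.79 and 6.11 in *eif3k* and 6.24, 5.62 and 4.21 in WT overlapped between the genotypes.

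The largest NP difference belonged to *QQS* (AT3G30720), an orphan gene of this species that affects the partition of carbon and nitrogen. The *eif3k* signals were 9.27, 9.57 and 8.91 in replicates 1, 2 and 3, and the WT signals 5.44, 5.67 and 4.29. The lowest mutant signal thus exceeded the highest WT signal by a wide margin. The difference was 4.12 (SE 0.47, n = 3 per genotype), which is a 17.35-fold ratio, with an adjusted p of 0.692 in limma over all probe sets. When probe sets with a mean below 5 were left out before the fit, *QQS* was the only call, with an adjusted p of 0.0141. In array batch 1 the difference was 3.87. In PL, *QQS* was also higher in the mutant without overlap (difference 2.49, SE 0.66), and NP and PL differences were not distinguished by the test on their ratio (adjusted p = 0.823 in limma).

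The disrupted gene *eIF3k* (AT4G33250) came second, after *AGL87*, among the decreases of brighter mRNAs with separate groups. Its signals were 7.30, 7.93 and 8.05 in the mutant and 9.26, 9.45 and 9.01 in WT. Every mutant array lay below every WT array, and none lay near the floor. The difference was -1.48 (SE 0.27; adjusted p = 0.876 in limma), and it was -1.63 without *eif3k* replicate 3. Where the probes lie relative to the insertion is not known, so the signal is no measure of intact mRNA. Of the 7 measured of 8 neighbouring genes, 1 (14.3%, against 2.47% of all probe sets) had lower groups that did not overlap, *PME44* (AT4G33220), a pectin methylesterase gene. Its mutant signals were 5.95, 6.04 and 5.85 against 6.35, 6.17 and 6.90 in WT, a difference of -0.53. The adjacent *CDC20.2* (AT4G33260) and *FAB1A* (AT4G33240) differed by 0.09 each.

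**Figure D1:**
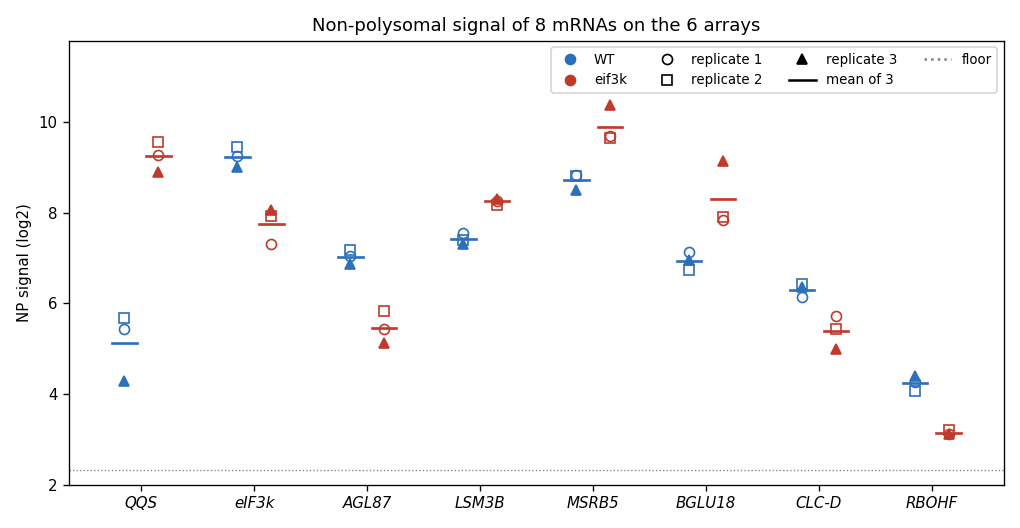
Non-polysomal log2 signals (vertical axis) of 8 mRNAs on the 3 WT (blue) and 3 *eif3k* (red) arrays, with symbols for the replicates, bars for the means of 3 and a dotted line at the floor of 2.33. The genotypes do not overlap for any of the 8, *QQS* has the widest gap, and for *BGLU18* and *MSRB5* the mutant replicate 3 (filled triangle) lies above the other mutant arrays.

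A further set was chosen for its small p rather than its size. It holds the 10 mRNAs with the smallest unadjusted p among probe sets that differed by at least 0.5, *QQS* included. *AGL87*, a transcription factor gene, had signals of 5.43, 5.82 and 5.13 in *eif3k* and 7.04, 7.17 and 6.87 in WT. The mutant was lower by 1.35 to 1.74 in the 3 pairs, with a mean difference of -1.57 (SE 0.22; adjusted p = 0.876 in limma). In PL it was lower as well, by 1.34, again without overlap.

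*LSM3B* (AT1G76860) encodes a subunit of the Sm-like rings that act in splicing and in mRNA decapping. It had 8.27, 8.18 and 8.30 in *eif3k* and 7.56, 7.40 and 7.31 in WT. The mutant arrays lay close together and above every WT array. The NP difference was 0.83 (SE 0.08; adjusted p = 0.590 in limma), while in PL it was -0.25. The test of whether these differed gave an adjusted p of 0.823 in limma.

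*RBOHF* (AT1G64060), which encodes a plasma membrane NADPH oxidase that makes reactive oxygen species, had low signals of 3.11, 3.21 and 3.11 in *eif3k* and 4.27, 4.06 and 4.39 in WT. The mutant was lower in each pair, with a mean difference of -1.10 (SE 0.10; adjusted p = 0.590 in limma) against 0.26 in PL. The ethylene response factor gene *ERF7* (AT3G20310) was higher by 0.68, the stress-associated zinc finger gene *SAP7* (AT4G12040) by 0.77 and *ASP4* (AT1G62800), for an aspartate aminotransferase, by 0.75. Lower signals were found for AT2G18840, which encodes the Golgi-associated protein YIP4a (-0.64), and AT1G74640, which encodes an alpha/beta-fold protein (-0.54). AT2G26520, higher by 0.63, had signals of 2.43 to 3.18, near the floor. These 10 mRNAs all had separate groups, so leaving out *eif3k* replicate 3 could not turn their direction. None passed the adjusted threshold over all probe sets.

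The 15 largest increases among brighter mRNAs with separate groups ran from 1.17 to 4.12. Besides *QQS*, they encode the hydroperoxide lyase HPL1 (AT4G15440, difference 1.72) and the defensin PDF2.2 (AT2G02100, 1.41). They also encode the ER body beta-glucosidase BGLU18 (AT1G52400, 1.35), the germin-like protein GER3 (AT5G20630, 1.32) and a putative trypsin inhibitor (AT2G43550, 1.28). The immunophilin gene *FKBP15-1* (AT3G25220, 1.28), the F-box protein gene *SKIP2* (AT5G67250, 1.20), the methionine sulfoxide reductase gene *MSRB5* (AT4G04830, 1.18) and *OPR3* (AT2G06050, 1.17) followed. OPR3 reduces the precursor of jasmonate in the peroxisome. Loci without an assigned role here were AT5G58570 (1.51), AT2G43535 (1.32), AT4G32590 (1.26), AT2G31440 (1.25) and AT3G23760 (1.21).

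In 14 of these 15 the largest difference lay in pair 3. *GER3* is the clearest example, with 7.25, 7.56 and 10.12 in *eif3k* and 7.20, 7.12 and 6.66 in WT. Its mutant replicate 3 lay far above the other 5 arrays, and the difference was 1.32 with all arrays and 0.41 without it. *PDF2.2* had 8.81, 8.56 and 11.58 against 8.40, 8.17 and 8.14, and its difference was 0.45 without *eif3k* replicate 3. For *FKBP15-1* it was the WT array of replicate 3 that was low, with 5.65, 5.91 and 6.46 in *eif3k* and 5.45, 5.50 and 3.23 in WT.

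*MSRB5* and *BGLU18* depended less on that array. *MSRB5* had signals of 9.69, 9.64 and 10.37 in *eif3k* and 8.84, 8.80 and 8.51 in WT. All 3 mutant arrays were higher, by 0.85 in array batch 1 and by 1.18 with all arrays (SE 0.26; adjusted p = 0.876 in limma). *BGLU18* had 7.83, 7.90 and 9.15 against 7.13, 6.74 and 6.96, a difference of 0.93 in array batch 1 and 1.35 in all, and in PL it was higher by 2.16 without overlap. In array batch 1, 11 of the 15 differed by at least 0.5 and 3 by at least 1, which were *QQS*, *HPL1* and *SKIP2*.

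The 15 largest decreases, chosen in the same way, ran from -0.79 to -1.57. After *AGL87* and *eIF3k* came the protein kinase gene *CIPK20* (AT5G45820, -1.38) and *PIF4* (AT2G43010, -1.08), a transcription factor of elongation growth that is controlled by phytochrome. The expansin gene *EXPA8* (AT2G40610, -1.07), the vesicular anion transporter gene *CLC-D* (AT5G26240, -0.92), the ferric reductase gene *FRO8* (AT5G50160, -0.90) and the beta-galactosidase gene *BGAL8* (AT2G28470, -0.84) followed. Smaller differences were found for the kelch F-box gene AT1G80440 (-0.82), *CAO* (AT1G44446, -0.80), which encodes the enzyme of chlorophyll b synthesis, AT1G69160 (-0.80) and the *RPP5*-like resistance gene AT4G16950 (-0.79). The zinc finger gene *IDD7* (AT1G55110, -0.79), AT4G12980 (-1.01) and the subtilase gene AT2G39850 (-0.79) completed the set.

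Here too pair 3 held the largest difference in 14 of 15, and 4 of the 15 differed by at least 0.5 in array batch 1. *PIF4* had 6.24, 6.16 and 3.93 in *eif3k* and 6.28, 6.34 and 6.96 in WT, so that replicates 1 and 2 hardly separated the genotypes. Its difference was -1.08 with all arrays and -0.11 in array batch 1. *CLC-D* was more even, with 5.72, 5.43 and 5.00 against 6.14, 6.42 and 6.35, a difference of -0.92 (SE 0.23; adjusted p = 0.876 in limma) and of -0.71 in array batch 1. In PL, which comes from the same plants, 5 of the 15 higher and 2 of the 15 lower mRNAs had separate groups in the same direction, beside 4.56% and 1.57% of all probe sets, dim ones included. This describes mRNAs chosen for their NP differences and is no independent test.

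**Figure D2:**
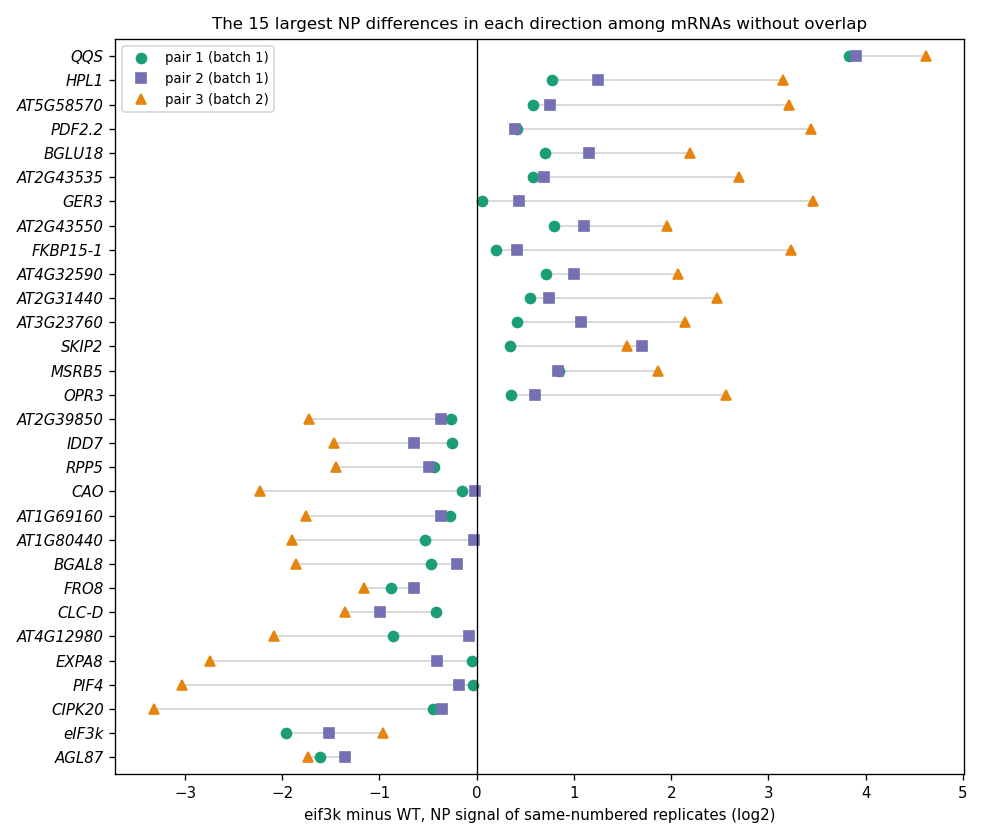
Difference in NP signal between *eif3k* and WT (horizontal axis, log2) for the 15 largest increases and 15 largest decreases without overlap, with 1 symbol for each same-numbered pair and a grey line for its range. Pair 3 (orange) is the farthest from 0 in 14 of 15 rows on either side, whereas *QQS* and *AGL87* have all 3 pairs near each other.

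Genes that follow the time of day separated *eif3k* replicate 3 from the other arrays. The plant clock is a loop in which morning genes such as *CCA1* and the later *PRR9* and *PRR7* alternate with evening genes such as *LUX* and *ELF4*. *PRR9* had 7.65, 7.59 and 3.24 in *eif3k* and 8.09, 7.66 and 6.20 in WT, and *PRR7* 7.81, 7.71 and 3.72 against 7.65, 7.33 and 7.31. *CCA1* had 6.94 in that array and 9.06 to 9.28 on the other 5. *LUX* was at 5.72 in *eif3k* replicate 3 and at 2.33 to 2.37 elsewhere, *ELF4* at 5.92 against 2.57 to 2.66, and *PRR3* at 5.22 against 2.35 to 2.37.

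These 6 genes agreed between the genotypes in replicates 1 and 2, where each pair differed by at most 0.44. None of the 17 clock genes had separate groups, and the median difference over the list was 0.01. The PL array of *eif3k* replicate 3 had *LUX* at 4.12 and *ELF4* at 7.07, where the other 5 PL arrays had 2.33 and 3.10 to 3.27. Genes of seed storage proteins moved with the same array: *CRA1* was at 5.25 in *eif3k* NP replicate 3 and at 2.33 to 2.91 elsewhere, and *SESA3* at 5.06 against 2.42 to 2.57. The summed linear signal of the 12 seed markers was 61.2 to 174.5 in *eif3k* and 61.1 to 64.9 in WT, with *OLEO1* and *OLEO3* at the floor on every NP array. The part of daily phase or of seed mRNA in the other differences of pair 3 was not tested.

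**Figure D3:**
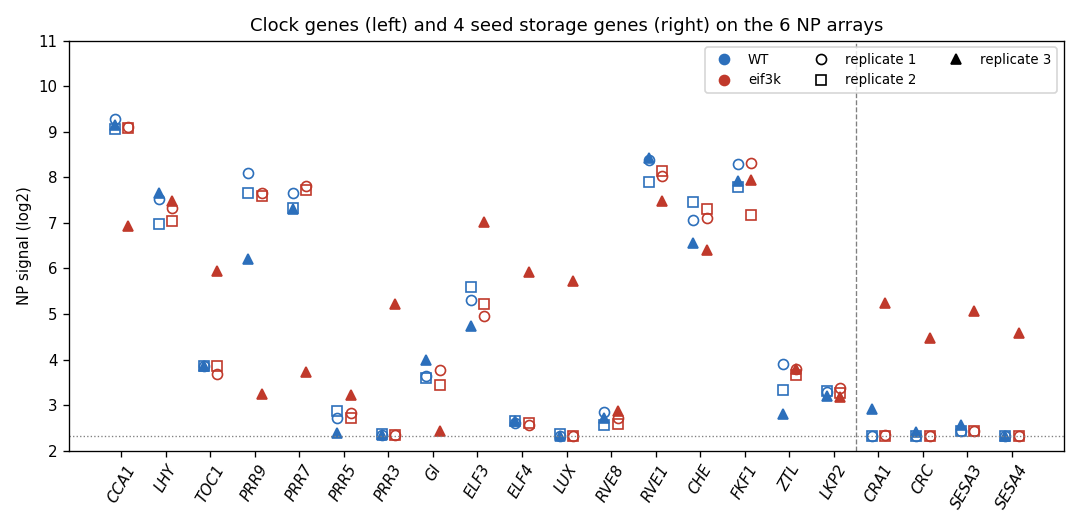
NP log2 signals (vertical axis) of the 17 clock genes and, right of the dashed line, of 4 seed storage genes on the 3 WT (blue) and 3 *eif3k* (red) arrays, with a dotted line at the floor. The filled red triangles of *eif3k* replicate 3 stand alone for *CCA1*, *PRR9*, *PRR7*, *PRR3*, *ELF4* and *LUX* and for the seed genes, while replicates 1 and 2 of the genotypes lie together.

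The list of genes induced by sugar starvation and darkness had a median difference of -0.27, with medians of 0.10 and 0.12 in pairs 1 and 2 and -0.68 in pair 3, and -0.07 without *eif3k* replicate 3. *DIN6* (AT3G47340), an asparagine synthetase gene that is repressed by sugars, illustrates the turn: it had 6.87, 6.56 and 3.55 in *eif3k* and 6.46, 6.05 and 8.43 in WT. The mutant was thus slightly higher in replicates 1 and 2 and far lower in replicate 3. None of the 17 members had separate groups. The trehalose phosphate synthase gene *TPS11* (AT2G18700) behaved alike, with pair differences of -0.06, 0.17 and -2.45.

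Transcripts of jasmonate synthesis and response were higher in the mutant in 16 of the 21 measured, lower in 3 and equal in 2. The median difference was 0.30, beside 0.00 over all probe sets, and was 0.22, 0.08 and 0.59 in pairs 1, 2 and 3. It was 0.09 without *eif3k* replicate 3. The groups were separate and higher for 5 of 21 (23.8%, against 3.83% of all probe sets and 7.30% of those with a mean of at least 5), and lower for 0 (against 2.47% and 4.04%). Jasmonate is made from a plastid lipid by LOX2, AOS and AOC1, and then by OPR3 in the peroxisome.

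The defensin gene *PDF1.2A* (AT5G44420), a classical marker of jasmonate and ethylene, had 4.63, 4.10 and 5.72 in *eif3k* and 2.55, 3.20 and 2.55 in WT. Every mutant array was higher, but WT lay near the floor of 2.33, where differences are compressed. The difference of 2.05 (SE 0.52; adjusted p = 0.876 in limma) is thus no exact ratio. *AOC1* (AT3G25760) had 7.68, 7.07 and 8.67 against 6.93, 6.37 and 6.64, a difference of 1.16. *LOX2* differed by 1.08 and the storage protein gene *VSP1* by 1.09, both without overlap. The jasmonate repressor gene *JAZ10* lay at 2.33 to 2.99 on all arrays, and *AOS* had a difference of -0.04.

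Glucosinolates are sulfur-containing defence compounds whose breakdown by myrosinase is promoted or steered by binding and specifier proteins. Of 26 genes of their synthesis, 23 had a positive and 3 a negative difference, with a list median of 0.37 (0.05, 0.33 and 0.55 in the 3 pairs, and 0.36 without *eif3k* replicate 3). The groups were separate and higher for 4 (15.4%, against 3.83% of all probe sets and 7.30% of those with a mean of at least 5, which 23 of the 26 reached) and lower for 0. *BCAT4* (AT3G19710), the aminotransferase of methionine chain elongation, had 8.38, 8.43 and 8.55 in *eif3k* and 7.69, 7.73 and 6.98 in WT. The mutant arrays agreed closely and lay above WT by 0.99 (SE 0.25; adjusted p = 0.876 in limma). *CYP79B3*, which starts the tryptophan branch, differed by 1.08 and the sulfotransferase gene *SOT18* by 1.04, with 2.03 and 2.29 of it in pair 3. The regulator gene *MYB51* had the opposite sign (-0.62) and 5.51 in WT replicate 3 against 2.61 to 3.57 elsewhere.

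Among 14 genes of the ER body and myrosinase system, 4 (28.6%, against 3.83% of all probe sets and 7.30% of the brighter ones) had separate and higher groups and 0 lower. *MBP1* had 4.93, 4.60 and 6.25 in *eif3k* and 3.77, 3.56 and 3.58 in WT, a difference of 1.62 (SE 0.51; adjusted p = 0.876 in limma). The epithiospecifier gene *ESP* (AT1G54040) had 5.61, 5.57 and 6.32 against 5.14, 4.74 and 4.30. All mutant arrays were higher for both genes. The list median was 0.13, with 0.36 and 0.51 in pairs 1 and 2 and -0.17 in pair 3. *MVP1* (-0.28) and *NAI2* (-0.24), which act in the ER body, lay on the other side of 0.

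**Figure D4:**
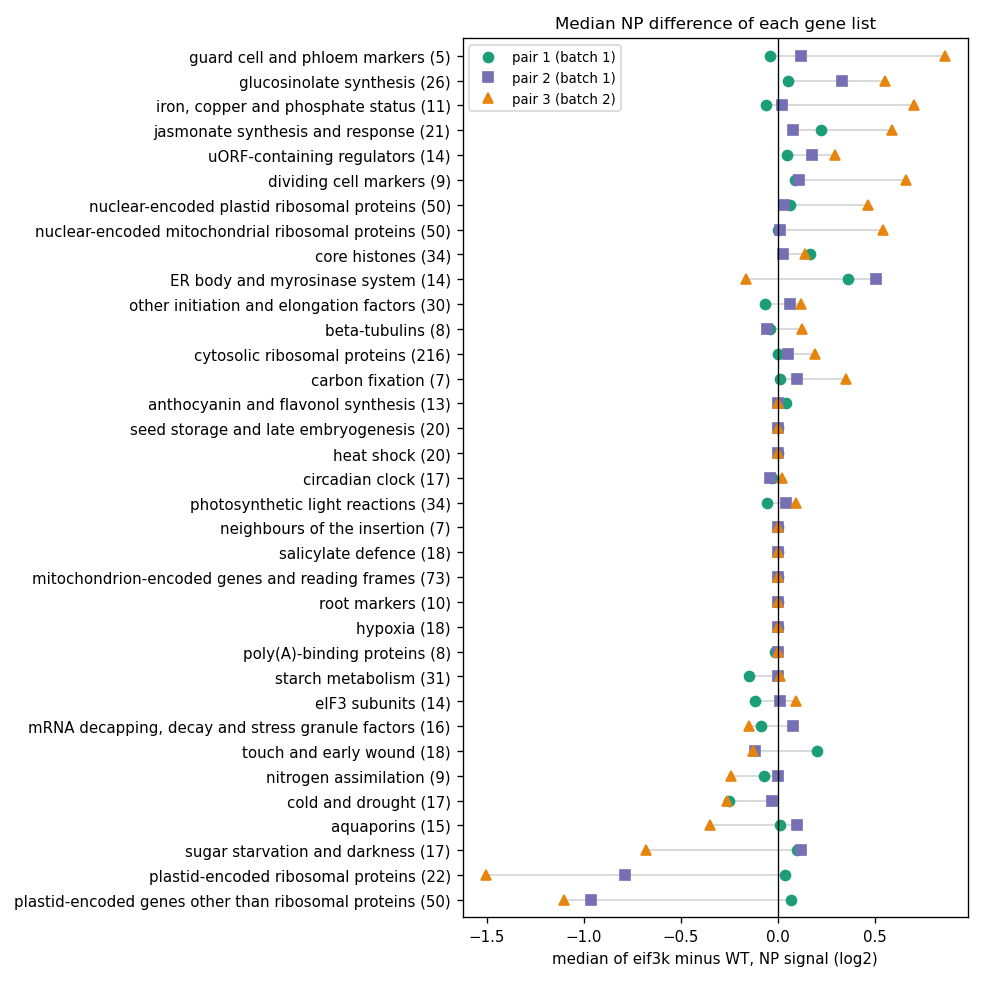
Median difference in NP signal between *eif3k* and WT (horizontal axis, log2) of each gene list in the 3 same-numbered pairs, with the number of probe sets in brackets. Most lists lie near 0 in pairs 1 and 2 and spread in pair 3 (orange), and both plastid-encoded lists lie below 0 in pairs 2 and 3 but not in pair 1.

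The mRNAs of initiation factors had list medians near 0. Of the 14 measured eIF3 subunit probe sets besides *eIF3k*, 6 were higher and 8 lower, with a median of -0.04. The subunit gene *eIF3g1* (AT3G11400) alone had separate groups, which were lower (7.14%, against 2.47% of all probe sets and 4.04% of the brighter ones). It had 7.05, 7.13 and 7.50 in the mutant and 7.56, 7.59 and 7.82 in WT, a difference of -0.43 (adjusted p = 0.876 in limma). Of 30 other initiation and elongation factor genes, 18 were higher and 12 lower, with a median of 0.09. Groups were separate and higher for 2 (6.67%) and lower for 1 (3.33%). These shares were 3.83% and 2.47% over all probe sets, and 7.30% and 4.04% over the brighter ones. The 3 genes of the start codon selection factor eIF1 were higher by 0.80 (AT5G54760), 0.71 (AT4G27130) and 0.70 (AT5G54940), of which AT4G27130 had separate groups. The helicase gene *eIF4A1* (AT3G13920) was lower by 0.48 without overlap.

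Among 16 genes of decapping, decay and stress granules, 7 were higher and 9 lower, with a median of -0.05. Groups were separate and lower for 3 (18.8%, against 2.47% of all probe sets and 4.04% of the brighter ones) and higher for 0. The 3 were the nonsense-mediated decay helicase gene *UPF1* (AT5G47010, -0.73), *PAT1* (AT1G79090, -0.72), whose product activates decapping, and the RNA-binding protein gene *RBP47B* (AT3G19130, -0.41). In each, pair 3 gave the largest difference, -1.56, -1.75 and -0.93. Of 8 poly(A)-binding protein genes, 0 had separate groups, but only 3 had a mean of at least 5.

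The 216 probe sets of cytosolic ribosomal proteins had a median difference of 0.08, with 135 higher and 70 lower. The groups were separate and higher for 11 (5.09%) and lower for 3 (1.39%), beside 3.83% and 2.47% of all probe sets. Among probe sets with a mean of at least 5, which 184 of the 216 reached, these shares were 7.30% and 4.04%. Their differences ranged from -0.37 for *L10C* (AT1G66580) to 0.78 for *P2D* (AT3G44590), a stalk protein gene. Of the 50 nuclear-encoded plastid ribosomal proteins, 43 reached that mean. Of the 50, 44 were higher and 4 lower, with a median of 0.18. Groups were separate and higher for 9 (18.0%, against 3.83% of all probe sets and 7.30% of the brighter ones) and lower for 0. The medians were 0.07 and 0.03 in pairs 1 and 2 and 0.47 in pair 3. The largest was *pRPL30* (AT5G55140), with 6.86, 7.08 and 7.34 against 6.62, 6.72 and 5.12, so that WT replicate 3 was the array that stood apart. For 50 nuclear-encoded mitochondrial ribosomal proteins the median was 0.17, again with 0.54 in pair 3.

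Plastid-encoded transcripts showed the lowest list medians. They are read by bacterial-type ribosomes inside the organelle and mostly lack a poly(A) tail, and the labelling used here favours polyadenylated RNA. All 22 probe sets of plastid-encoded ribosomal proteins and 46 of 50 other plastid-encoded genes had negative mean differences, with medians of -0.77 and -0.78. Without *eif3k* replicate 3 these were -0.13 and -0.07, and in array batch 1 they were -0.41 and -0.38. By pair, the medians were 0.035 and 0.07 in pair 1, -0.785 and -0.96 in pair 2, and -1.505 and -1.10 in pair 3. In PL the median differences were -0.94 and -1.15. None had separate groups, because the mutant replicate 1 did not share the pattern. The median signal of the 22 was 10.59, 7.52 and 6.77 in *eif3k* replicates 1, 2 and 3 and 10.53, 9.27 and 8.73 in WT.

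The gene for the large subunit of the carbon-fixing enzyme, *rbcL*, had 10.00, 6.76 and 5.70 in *eif3k* and 9.48, 9.27 and 9.12 in WT. The photosystem I gene *psaI* had 12.49, 9.20 and 7.57 against 12.42, 11.55 and 10.74, and the NADH dehydrogenase gene *ndhE* 10.01, 6.67 and 4.45 against 10.02, 9.13 and 7.62. In each, mutant replicate 1 was level with or above WT and replicates 2 and 3 were below all WT arrays. The control probe set for 25S ribosomal RNA, which has no poly(A) tail either, had 12.98, 9.28 and 9.57 in *eif3k* and 10.70, 13.11 and 14.01 in WT. It was lower in the mutant in pairs 2 and 3 and higher in pair 1. Within WT it rose from replicate 1 to replicate 3, whereas the plastid medians fell. The control probe set BioB ranked the 6 arrays in the same order as 25S. It had 10.04, 9.00 and 9.12 in *eif3k* and 9.29, 10.17 and 11.53 in WT. The part of the recovery of RNA without poly(A) in the plastid values was not tested.

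**Figure D5:**
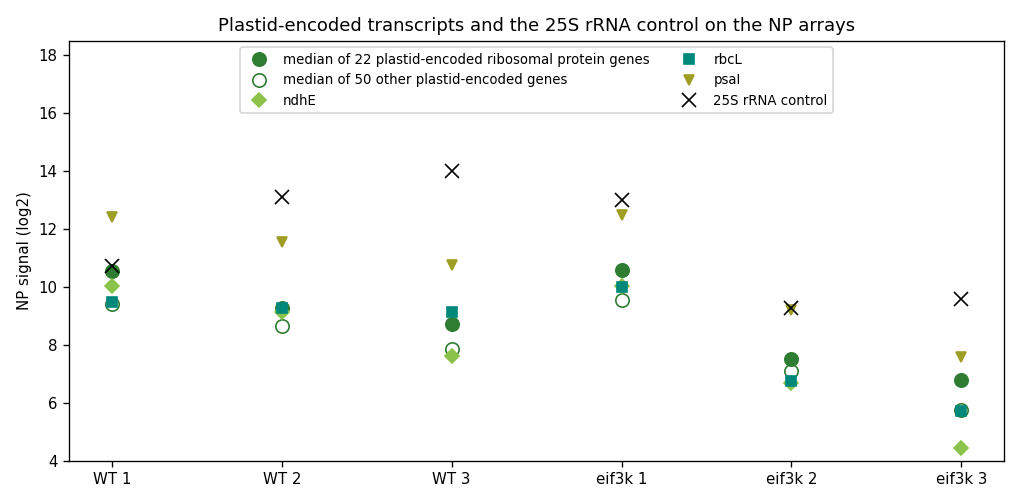
NP log2 signals (vertical axis) on each of the 6 arrays for the medians of 22 plastid-encoded ribosomal protein genes and 50 other plastid-encoded genes, for *rbcL*, *psaI* and *ndhE*, and for the 25S rRNA control. The plastid values of *eif3k* replicate 1 match WT replicate 1, and those of *eif3k* replicates 2 and 3 are the lowest of the 6 arrays.

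Nuclear genes of photosynthesis had list medians near 0. Of 34 genes of the light reactions, 17 were higher and 16 lower with a median of 0.00, and 4 had separate and higher and 2 (5.88%) separate and lower groups. Of 7 carbon fixation genes, the small subunit gene *RBCS1A* alone (14.3%) had separate groups (14.73, 14.71 and 14.90 against 14.60, 14.54 and 14.43, difference 0.26). In starch metabolism, 4 of 31 (12.9%) were lower and 1 (3.23%) higher without overlap. Over all probe sets these shares were 2.47% and 3.83%, and over the brighter ones 4.04% and 7.30%. The debranching enzyme gene *LDA* (AT5G04360, -0.50), the plastid phosphorylase gene *PHS1* (AT3G29320, -0.50) and the starch synthase gene *SS3* (AT1G11720, -0.56) were the lowest with separate groups, and the cytosolic phosphorylase gene *PHS2* (AT3G46970, 0.73) the highest. *PHS1* had 6.84, 6.80 and 6.46 in *eif3k* and 7.16, 7.27 and 7.16 in WT, with all mutant arrays lower.

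In the stress lists, separate groups were counted beside 3.83% (higher) and 2.47% (lower) of all probe sets. Of 17 cold and drought genes, 12 were lower and 3 higher with a median of -0.14, and 1 (5.88%), *RD29B* (AT5G52300, -0.68), had separate and lower groups. Of 20 heat shock genes, 1 (5.00%) had separate and higher and 1 separate and lower groups. *BIP1* (AT5G28540), the chaperone of the ER lumen, was higher in every pair by 0.55 to 0.60 (mean 0.57, SE 0.16; adjusted p = 0.876 in limma). Its signals were 7.46, 7.19 and 7.56 in *eif3k* and 6.86, 6.62 and 7.01 in WT. *HSP101* was lower by 0.28 near the floor. Of 18 genes of salicylate defence and 18 of hypoxia, 0 had separate groups.

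Lists that describe cell types shifted mainly in pair 3. The 5 guard cell and phloem markers had a median difference of 0.44, with -0.04 and 0.12 in pairs 1 and 2 and 0.86 in pair 3. Their summed linear signal was 276.9 to 317.1 in *eif3k* and 157.2 to 323.9 in WT, so the ranges overlapped. The 9 measured of 12 markers of dividing cells had 0.19, with 0.66 in pair 3 and sums of 154.6 to 252.2 against 133.6 to 177.4. In bulk tissue, fewer cells of a type and less RNA per cell cannot be told apart. The part of tissue composition in the differences of pair 3 was not tested.

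No mRNA could be called particular to the non-polysomal fraction. The log2 ratio of PL to NP, formed within each replicate, was compared between the genotypes, which tests whether the PL difference departs from the NP difference. Of 22746 probe sets, 0 (0.00%) passed and 612 (2.69%) had an unadjusted p under 0.05. The WT polysomal array of replicate 3 is atypical, and without that replicate the count was again 0.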

How the data were processed

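Signals of 12 Affymetrix ATH1 arrays were deposited by the authors on the log2 scale, 1 value a probe set, after background correction and normalization over all arrays. The submitters' notes name GCRMA and the study's methods RMA. The sources used here do not give the version, the probe set definitions or the build. Since the arrays were scaled to one another, only relative differences were read. The 6 deposited columns of PL to NP ratios were not used, and this ratio was computed from the log2 signals. From 22810 probe sets, 64 controls were left out. Loci followed the deposited annotation, and 22091 of the 22591 probe sets that have 1 nuclear locus were named through the gene table of TAIR10.1.

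The NP arrays of the genotypes were compared by limma 3.58.1 (R 4.3.3) with two-sided tests from lmFit and eBayes, p-values adjusted by Benjamini-Hochberg across 22746 probe sets, and ordinary SE. A call needed an adjusted p under 0.05 and a log2 difference of at least 1. The prior degrees of freedom were 0.434, so moderation was weak. Arrays have no read depth, and 3 replicates limit the precision. The study calls the samples biological replicates, and the p-values measure only the spread between them, which may be partly technical. Same-numbered replicates deviated together from their group means (correlations of 0.202, 0.237 and 0.161 over probe sets, each above 0.1). Differently numbered replicates had correlations of -0.167 to -0.00754, with -0.109 and -0.00754 between replicates 1 and 2 of array batch 1. Deviations from a group mean cancel within a genotype, so positive values for same numbers force negative ones among the others. The negative values are thus no separate evidence of pairing. The numbers were therefore treated as pairs for the pair differences and the replicate block, although a shared array batch would give the same sign. The main fit had no block, so its SE and adjusted p do not use the pairing. Blocking on the replicate number gave 0 calls.

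Named genes were *eIF3k*, its neighbours, *QQS*, the 15 largest differences in each direction among probe sets with 1 nuclear locus, no shared-probe suffix, separate groups and a mean of at least 6 in 1 genotype, the 10 smallest p with a difference of at least 0.5, and up to 3 members per direction from each of 35 gene lists, besides members named for their role. Names, lists and rules were chosen with earlier results of these data known, and the ribosomal protein lists are the study's. Probe sets that can hybridize to several transcripts were kept. Alternatives left out arrays, changed the scaling, the filter or the moderation, or added blocks, and 3 of them were added after the data were seen. Plots were drawn with matplotlib 3.10.9.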

Additional observations from a re-analysis of the deposited data

Results flagged for a closer look

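For 9 of the named mRNAs and gene list members, the genotypes differed one way in all 3 NP pairs and the opposite way in all 3 PL pairs. The share of all probe sets that do so is not given here, so the count carries no weight by itself. The values are the genotype difference in PL minus that in NP, on the log2 scale. In limma each of the 9 had an adjusted p of 0.823, so no difference between the fractions passed the test. The decapping and splicing gene *LSM3B* had -1.07, and -1.10 without WT replicate 3. The anthocyanin branch gene *TT7* (AT5G07990) had 0.48, close to the floor in NP, and *MVP1* had 0.93. *CAO* (CH1 in the gene table) had 1.67 and 0.29 without WT replicate 3, *PAT1* 1.21 and 0.39, *TUB4* 1.30 and 0.32, *EIF4A1* 0.96 and 0.34, *CSD2* 0.72 and 0.14, and AT2G18840 1.09 and 0.53. For these 6 the value depended on the atypical WT polysomal array.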

How the results depend on the processing

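No probe set was called in NP over all probe sets under any scaling, block, moderation or left-out array, with 0 calls as the lowest and highest count. The replicate block gave 0 calls and moved no call. When probe sets with a mean below 5 were left out, the count was 1, *QQS*, with an adjusted p of 0.0141 in limma. It was again 1 under that filter with the replicate block (0.00414), without *eif3k* replicate 3 (0.0487) and in array batch 1 alone (0.00279), 3 settings added after the data were seen. Over 20 settings the *QQS* difference was 3.70 to 4.39 and its adjusted p 0.00279 to 0.931. The ratio of PL to NP gave 0 calls in each of its settings. All 38 named mRNAs outside the lists kept their direction in every setting that tested them, which is no evidence of stability. Their groups were separate, so leaving out arrays could not turn the direction. Blocks, moderation and filters leave the difference unchanged. The number of probe sets that differed by at least 1 was 141, but 45 without *eif3k* replicate 3, 48 without replicate 3 of both genotypes, 517 without replicate 1 and 449 without replicate 2. Differences near the floor of 2.33 are compressed and limit what dim mRNAs can show. Across the alternatives, 314 list medians moved by less than the SD of the 3 pair differences and 70 by more, and 3467 and 59 values of single list members did so. These counts are no measure of stability. Blocks, moderation and filters cannot move the value of a single member, and a pair that stands apart widens the SD itself.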
